A study of Mus musculus with 4 samples.

Results

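The 10 immediate-early response genes Fos, Fosb, Jun, Junb, Atf3, Egr1, Nr4a1, Ier2, Dusp1 and Ccn1 were examined in whole kidney RNA, out of 54532 genes listed in each library. They were chosen by their values in these same libraries, because each was lower in ZBP1-KO than in WT kidneys. The levels and fold changes of these 10 genes are therefore a description and carry no test. The study compared kidneys of WT and Zbp1-/- mice of the C57BL/6J strain, with 2 libraries per genotype and 4 in all. Every mouse, WT included, was injected intraperitoneally at 8 weeks with 500 µL of pristane, an oil used to provoke lupus-like disease, and its kidney was collected after 8 months. The Zbp1-/- mice came from a CRISPR-Cas9 deletion that removed several exons of Zbp1, whose protein binds left-handed (Z-form) nucleic acids, in all cells. No library from mice without pristane was analysed here, so every level below is a level under pristane. The labels do not say whether the libraries came from separate animals, so that p-values measure only the spread between these samples, which may be technical.

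Immediate-early genes are transcribed within minutes of a stimulus such as a growth factor, a cytokine, stretch or ischaemia, without new protein synthesis. Their promoters are bound before the stimulus by factors such as SRF with its ternary complex partners and CREB, which are phosphorylated by MAP kinases and protein kinase A, and the transcripts are short-lived. Most of the products are transcription factors (the Fos and Jun proteins that pair to form AP-1, Egr1, Nr4a1 and Atf3), while Dusp1 is a phosphatase that switches MAP kinases off and Ccn1, formerly Cyr61, is a secreted matrix-associated protein. In the kidney they are known as early markers of ischaemia and tubular stress.

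The libraries held between 9878776 and 12921925 counts, of which 49.5% to 61.5% fell on mitochondrially encoded genes, so that 4003417 to 5782924 counts remained for all other genes. Levels are given as CPM (counts scaled to a library of 1000000 counts) after TMM scaling, where 1 count was worth 0.0737 to 0.108 CPM and 3 counts, taken as the detection floor, 0.221 to 0.323 CPM. Zbp1 itself was at 7.56 CPM in WT 1, 10.7 CPM in WT 2, 1.33 CPM in ZBP1-KO 1 and 0 in ZBP1-KO 2, where the count of 0 allows up to 0.323 CPM. Markers of kidney epithelium were abundant in all 4 libraries: Slc34a1, the sodium-phosphate transporter of the proximal tubule, was at 529 to 1032 CPM, and Aqp2, the water channel of the collecting duct, at 530 to 1061 CPM.

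All 10 genes were at lower levels in both ZBP1-KO libraries than in both WT libraries, and their median log2 fold change (ZBP1-KO over WT, from edgeR's fit) was -1.72, against -0.01 over the 14908 genes tested. Among all genes tested, 2426 (16.3%) had both ZBP1-KO libraries below both WT libraries and 50.6% had a negative fitted fold change. Since the genes were selected on this contrast, the count of 10 of 10 is not a result about them. None of the 10 passed an adjusted p of 0.05 in edgeR's quasi-likelihood test (0 of 14908 genes, 0%, were called lower and 2, 0.0134%, higher), while the edgeR exact test called 4 of them, against 8 genes (0.0537%) called lower over all genes, and DESeq2 called 2, against 4 genes (0.0268%). Of the 10, 9 had an unadjusted p under 0.05 in the quasi-likelihood test, as did 1.97% of all genes in the lower direction and 1.91% in the higher. These calls and p-values come from the contrast that chose the 10 genes, so they too are not a result about them. In bulk tissue, fewer cells expressing a gene and less RNA per cell cannot be told apart.

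**Figure D1:**
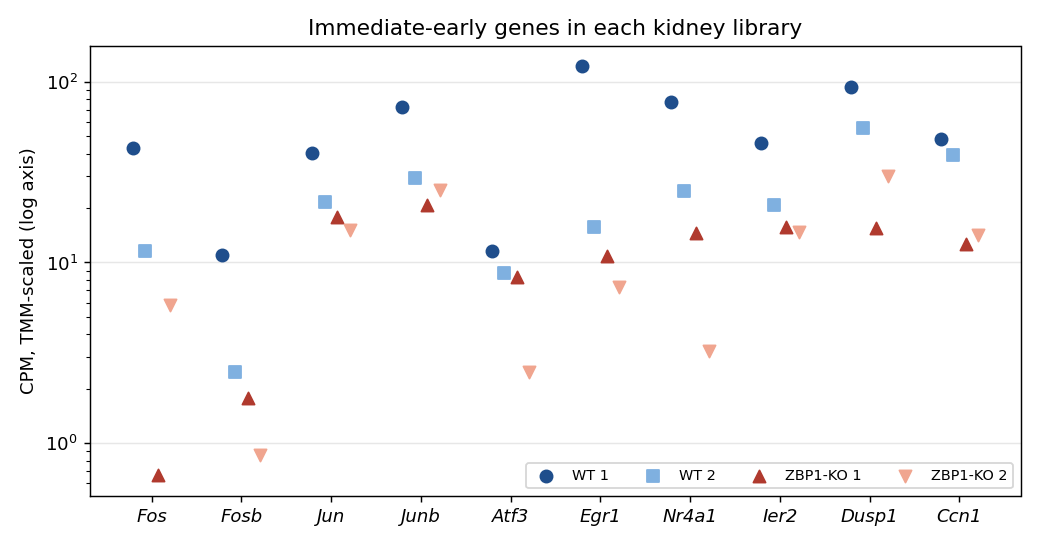
Level of each of the 10 immediate-early genes (x axis) in CPM after TMM scaling (y axis, log scale), with 1 point per library. WT 1 is the highest library for every gene, WT 2 lies between it and the ZBP1-KO libraries, and the gap between WT 2 and the higher ZBP1-KO library runs from 1.05-fold for Atf3 to 2.79-fold for Ccn1.

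Among the Fos genes, whose products pair with Jun proteins to form AP-1, Fos (ENSMUSG00000021250, chr12:85473890-85477273, plus strand) was at 42.9 CPM in WT 1 and 11.5 CPM in WT 2, and at 0.664 CPM in ZBP1-KO 1 and 5.82 CPM in ZBP1-KO 2. The groups did not overlap, but the libraries of each genotype were far apart: WT 1 was 3.71-fold above WT 2 and ZBP1-KO 2 was 8.77-fold above ZBP1-KO 1. The value in ZBP1-KO 1 rested on 9 counts, with an exact 95% Poisson interval of 0.303 to 1.26 CPM that covers counting error only. Its fitted log2 fold change of -3.15 ± 0.75 (SE, n = 2 per genotype) was the largest in size of the 10. The SE of a fold change, here and below, was derived from edgeR's quasi-likelihood test, which shares the spread across genes. It is not the spread of the 2 libraries of a genotype and is given as a description. For Fos the SD between replicates, pooled over genotypes, was 1.70 in log2 CPM. Fosb (ENSMUSG00000003545, chr7:19302696-19310051, minus strand), the closest relative of Fos in the list, was at 11.0, 2.48, 1.77 and 0.862 CPM in WT 1, WT 2, ZBP1-KO 1 and ZBP1-KO 2. Only WT 1 stood apart from the rest for Fosb, since the counting intervals of WT 2 (1.66 to 3.56 CPM, 29 counts) and ZBP1-KO 1 (1.13 to 2.63 CPM, 24 counts) overlapped. The log2 fold change of Fosb was -2.33 ± 0.78.

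The Jun genes differed less between genotypes. Jun (ENSMUSG00000052684, chr4:95049034-95052222, minus strand), which can form AP-1 dimers with itself as well as with Fos proteins, was at 40.5, 21.6, 17.9 and 15.1 CPM in WT 1, WT 2, ZBP1-KO 1 and ZBP1-KO 2, a log2 fold change of -0.91 ± 0.30. Junb (ENSMUSG00000052837, chr8:84974484-84978718, minus strand), a Jun relative that often restrains Jun activity, was at 73.0, 29.4, 20.9 and 25.3 CPM in the same order, a log2 fold change of -1.15 ± 0.35. For both genes WT 2 lay nearer to the ZBP1-KO libraries than to WT 1, and the lower WT value exceeded the higher ZBP1-KO value by 1.21-fold for Jun and 1.16-fold for Junb. Atf3 (ENSMUSG00000026628, chr1:191170296-191218039, minus strand), a stress-induced repressor of the ATF/CREB family, was at 11.6, 8.72, 8.33 and 2.48 CPM. Here ZBP1-KO 2 was the library that stood apart, ZBP1-KO 1 differed from WT 2 by 1.05-fold, and the counting intervals of these 2 libraries (7.11 to 10.6 and 6.87 to 10.02 CPM) overlapped. The log2 fold change of Atf3, -0.89 ± 0.52, was the smallest in size of the 10.

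Egr1 (ENSMUSG00000038418), a zinc finger activator of growth and matrix genes, was at 122 CPM in WT 1 but only 15.7 CPM in WT 2, against 10.8 CPM in ZBP1-KO 1 and 7.33 CPM in ZBP1-KO 2. The 7.78-fold distance between the WT libraries was larger than the 1.72-fold distance from WT 2 to the ZBP1-KO mean. The log2 fold change was -2.91 ± 0.67. Nr4a1 (ENSMUSG00000023034, chr15:101254269-101274795, plus strand), an orphan nuclear receptor, was at 77.3 and 24.9 CPM in the WT libraries and at 14.6 and 3.23 CPM in the ZBP1-KO libraries. Its libraries were spread within each genotype, 3.11-fold in WT and 4.52-fold in ZBP1-KO, and its log2 fold change was -2.48 ± 0.58. Ier2 (ENSMUSG00000053560, chr8:84661331-84662852, minus strand), which encodes a nuclear protein, was at 45.8 and 20.8 CPM in the WT libraries and at 15.7 and 14.8 CPM in the ZBP1-KO libraries. For Ier2 the ZBP1-KO libraries lay within 1.06-fold of each other, and the log2 fold change was -1.13 ± 0.33.

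In Dusp1 and Ccn1, which encode a phosphatase and a secreted protein, the distance between genotypes was widest relative to the spread between replicates. Dusp1 (ENSMUSG00000024190, chr17:26505590-26562128, minus strand), the phosphatase that dephosphorylates p38, JNK and ERK, was at 93.4, 55.8, 15.6 and 30.2 CPM in WT 1, WT 2, ZBP1-KO 1 and ZBP1-KO 2. Its lower WT value exceeded its higher ZBP1-KO value by 1.85-fold, and its log2 fold change was -1.72 ± 0.32. Ccn1 (ENSMUSG00000028195, chr3:145646976-145649981, minus strand), which signals through integrins and is a target of YAP and SRF, was at 48.4, 39.4, 12.6 and 14.1 CPM in the same order. The WT libraries of Ccn1 lay within 1.23-fold, the closest of the 10, and its ZBP1-KO libraries within 1.12-fold, and its log2 fold change was -1.72 ± 0.24. The annotated spans of 4 members hold other genes: Ergic1 on the opposite strand and pseudogenes within Dusp1, the antisense gene Junos at Jun, Prdx2 at Junb and a small RNA at Atf3. The sources used here do not give the strand setting of the counting, so reads of these opposite-strand neighbours may not have been separated.

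The members also differed in how the libraries of 1 genotype compared with each other. WT 1 was above WT 2 for 10 of 10 genes and at least 2-fold above for 6 (Fos, Fosb, Junb, Egr1, Nr4a1 and Ier2), against 7.69% of all genes tested that were at least 2-fold higher in WT 1 than in WT 2. A high value in either WT library raises the WT mean by which the genes were chosen, so this count is not independent of the choice and is given as a description. In ZBP1-KO no such common order was seen: ZBP1-KO 1 was the higher library for 6 genes and ZBP1-KO 2 for 4, with Fosb, Atf3 and Nr4a1 at least 2-fold higher in ZBP1-KO 1 (9.65% of all genes) and Fos 8.77-fold higher in ZBP1-KO 2. The mean of the centred log2 CPM over the 10 genes was 1.54 in WT 1, 0.21 in WT 2, -0.81 in ZBP1-KO 1 and -0.95 in ZBP1-KO 2.

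**Figure D2:**
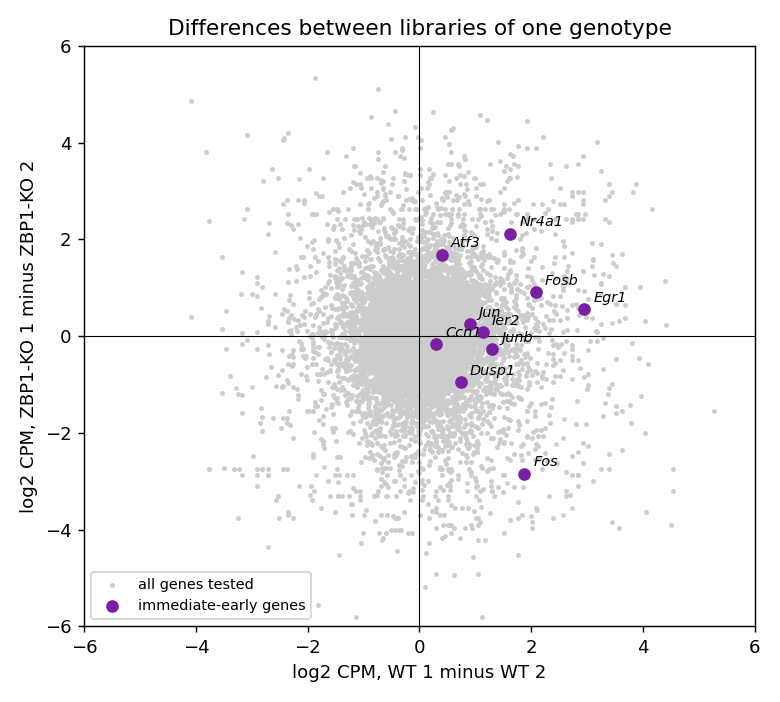
Difference in log2 CPM between the WT libraries (x axis, WT 1 minus WT 2) and between the ZBP1-KO libraries (y axis, ZBP1-KO 1 minus ZBP1-KO 2), with 1 grey point for each of the 14908 genes tested and purple points for the 10 members. All 10 lie to the right of 0 on the x axis, from Ccn1 near the origin to Egr1 at 2.95, while on the y axis they spread from Fos at -2.84 to Nr4a1 at 2.12.

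How much of each fold change came from WT 1 was measured by leaving out each library in turn, with the spread then taken from the remaining libraries and the lone library assumed to vary like the others. Without WT 1 the median log2 fold change of the 10 genes was -0.85, and the values of Egr1 (-0.79), Fosb (-0.91), Ier2 (-0.46), Jun (-0.40) and Junb (-0.36) all moved toward 0 by more than the spread between replicates. Without WT 1, Fos was at -1.87, Nr4a1 at -1.47 and Dusp1 at -1.30. The value of Ccn1 changed least among the 10 when any library was left out, from -1.57 without WT 1 to -1.87 without WT 2. Individual ZBP1-KO libraries set the size for other genes: Fos was at -5.35 without ZBP1-KO 2 and -2.23 without ZBP1-KO 1, Nr4a1 at -3.99 without ZBP1-KO 1, and Atf3 at -2.04 without ZBP1-KO 1 and -0.29 without ZBP1-KO 2. The fold change stayed negative for each of the 10 genes whichever library was left out. Both ZBP1-KO libraries lay below both WT libraries for all 10, so this sign was all but fixed by the choice of genes.

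**Figure D3:**
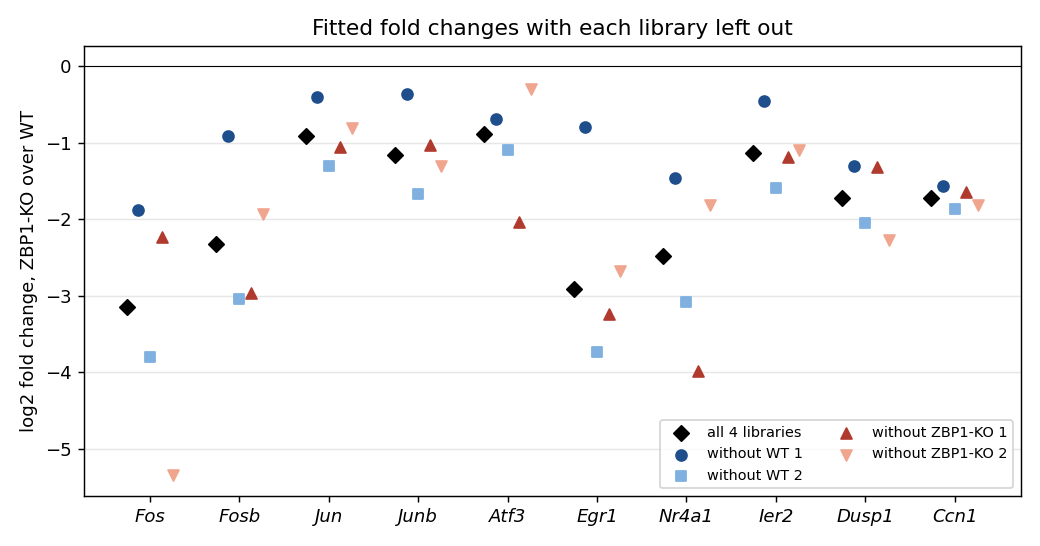
Fitted log2 fold change of each member (y axis, ZBP1-KO over WT; x axis, gene) from all 4 libraries and with each library left out. Leaving out WT 1 brings Egr1 from -2.91 to -0.79 and Junb from -1.15 to -0.36, while Ccn1 stays between -1.87 and -1.57.

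Markers of other cell types did not all move with WT 1. The summed level of 5 neutrophil markers was 21.96, 2.82, 7.37 and 9.91 CPM in WT 1, WT 2, ZBP1-KO 1 and ZBP1-KO 2, so WT 1 was the highest and WT 2 the lowest. S100a8 was at 11.0, 0.513, 4.06 and 3.23 CPM, S100a9 at 9.65, 1.88, 3.32 and 6.25 CPM and Retnlg at 1.29, 0.428, 0 and 0.431 CPM, each with WT 1 highest, while Ly6g and Mpo were at 0 in all 4 libraries. The sum of 5 fibroblast markers was 481, 330, 236 and 371 CPM and that of 6 macrophage markers 240, 161, 227 and 228 CPM. Both sums were highest in WT 1, with the genotypes overlapping, but the single markers differed. WT 1 was highest for Col1a1 and Col3a1 but not for Pdgfra, Dcn and Lum. Among the macrophage markers it was highest for Csf1r and Itgam but not for Adgre1, Cd68, C1qa and C1qb. Csf1r, at 148, 102, 128 and 131 CPM, made up most of the macrophage sum. The 7 proximal tubule markers summed to 1901, 1964, 1481 and 1978 CPM. The 6 fat cell markers went the other way, at 80.1, 106, 219 and 177 CPM in the same order, and of these Cfd, the complement protease adipsin, was the only gene of any list to pass the test (14.4, 19.8, 83.7 and 73.3 CPM, log2 fold change 2.20, adjusted p = 0.00889 in edgeR's quasi-likelihood test). The 6 T cell markers summed to 9.49, 7.36, 17.8 and 14.97 CPM. The sums of the 5 collecting duct markers, most of which was Aqp2, were 1067, 1207, 871 and 642 CPM. Those of the 4 podocyte markers were 98.2, 96.2, 121 and 139 CPM. Neither sum overlapped between genotypes, although 0 of these markers were called. Singly, 3 of the 5 collecting duct markers had both ZBP1-KO libraries below both WT libraries, against 16.3% of all genes tested. Of the 4 podocyte markers, 2 had both above (against 16%), and the remaining markers of both lists overlapped. The sums for the thick limb and distal tubule, the endothelium and the smooth muscle and pericyte markers overlapped. The 4 B cell markers were low, at 3.38, 5.73, 0.885 and 1.83 CPM, with Ms4a1 and Cd79a at 0 in both ZBP1-KO libraries. The 5 adrenal cortex markers were at 2.01 CPM in WT 1, 0.342 CPM in WT 2 and 0 in both ZBP1-KO libraries. The part of these cell types in the immediate-early levels was not tested.

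The proportions of AP-1 subunits were compared on levels per kilobase of exon, which allow genes to be set beside each other. The 7 Fos and Jun family genes summed to 97.8 CPM per kb in WT 1, 55.0 in WT 2, 43.5 in ZBP1-KO 1 and 41.3 in ZBP1-KO 2. Fos, Fosb, Jun and Junb were chosen as lower in ZBP1-KO, so differences between genotypes in this sum and its shares follow in part from that choice. These values are a description. Fos and Fosb together made up 20.4% of the sum in WT 1, 9.64% in WT 2, 1.30% in ZBP1-KO 1 and 6.32% in ZBP1-KO 2. The share in ZBP1-KO 1 rested on 9 counts of Fos and 24 of Fosb. Jund, the family member that is expressed without a stimulus, made up 31.0%, 50.9%, 58.1% and 48.8%, so it was the largest component in every library but WT 1, where Junb (32.4%) was slightly above it. The level of Jund itself was 50.5, 46.7, 42.2 and 33.6 CPM, a log2 fold change of -0.36 (adjusted p = 0.999). The share of Jun was nearly level across the libraries, between 11.5% and 12.97%. The ratio of Fos to Jun, both per kilobase, was 1.44 in WT 1, 0.723 in WT 2, 0.0502 in ZBP1-KO 1 and 0.523 in ZBP1-KO 2. Fosl2, a Fos relative that is induced later and more weakly, was at 26.1, 20.8, 28.8 and 19.9 CPM with overlapping genotypes, a log2 fold change of 0.06 that turned negative when WT 2 or ZBP1-KO 1 was left out. Of the 12 wider relatives of AP-1, 5 had ZBP1-KO below WT without overlap (41.7%, against 16.3% of all genes tested) and 0 above (against 16%), with a median log2 fold change of -0.24. Maf, an abundant basic leucine zipper factor, was at 196, 192, 107 and 176 CPM (-0.46) and Batf3, a factor of dendritic cells, at 1.53, 4.19, 1.18 and 0 CPM (-2.19). Fosl1 had 11 counts in WT 1, 14 in ZBP1-KO 2 and 0 in the other libraries, and its fitted sign also changed without WT 2.

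**Figure D4:**
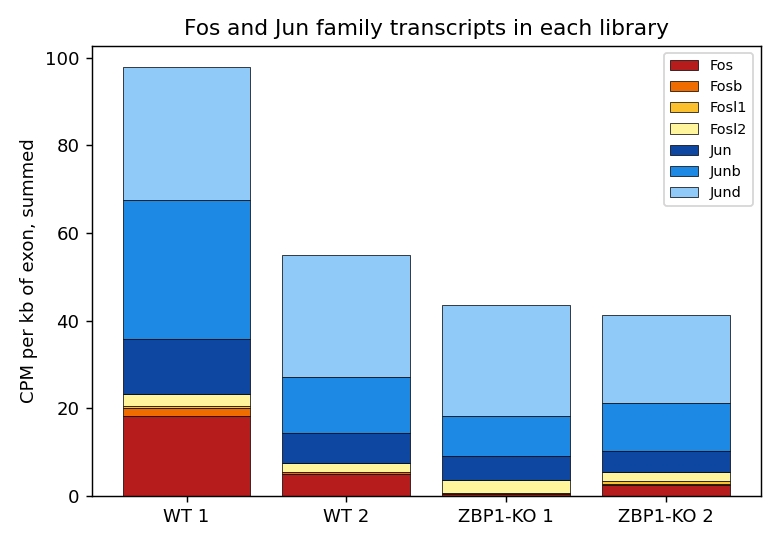
Stacked levels of the 7 Fos and Jun family genes (y axis, CPM per kb of exon, summed) in each of the 4 libraries (x axis). The sum falls from 97.8 in WT 1 to 41.3 in ZBP1-KO 2, and the red and orange segments of Fos and Fosb shrink from 20.4% of it in WT 1 to 1.30% in ZBP1-KO 1, while the pale blue segment of Jund is present in every library. Fos, Fosb, Jun and Junb were chosen as lower in ZBP1-KO, so the fall follows in part from that choice.

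Ordered by level per kilobase, Junb, Ier2, Dusp1 and Ccn1 were among the top 5 of the 10 in every library and Fosb was last or next to last. Egr1 ranked in the top 4 in WT 1, at 27.2 CPM per kb, and was at 3.49 in WT 2, 2.42 in ZBP1-KO 1 and 1.63 in ZBP1-KO 2. The group means ± SD (n = 2) of neighbours in this order overlapped: Dusp1 was at 22.5 ± 8.03, Junb at 22.3 ± 13.4 and Ier2 at 21.9 ± 11.6 CPM per kb in WT, and Junb at 10.04 ± 1.37 and Ier2 at 10.01 ± 0.44 in ZBP1-KO.

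A further list of 48 immediate-early genes that are not among the 10 gave values that the choice of members did not use directly, although the list was put together with earlier results of these libraries known and comes from the same contrast. Of these, 43 were tested and 1, Egr4, was at 0 in all libraries. None of the 43 passed an adjusted p of 0.05 in edgeR's quasi-likelihood test, the edgeR exact test or DESeq2. In the quasi-likelihood test 10 had an unadjusted p under 0.05 in the lower direction (23.3%, against 1.97% of all genes tested) and 1, Irf1, in the higher (against 1.91%). Both ZBP1-KO libraries lay below both WT libraries for 17 of the 43 (39.5%, against 16.3% of all genes tested) and above them for 2 (against 16% of all genes). The fitted fold change was negative for 33 (76.7%, against 50.6%) and the median was -0.32 (against -0.01), well short of the -1.72 of the selected 10. WT 1 was at least 2-fold above WT 2 for 8 of the 43 (18.6%, against 7.69%). The mean centred log2 CPM of the list was 0.41, 0.06, -0.24 and -0.23 in WT 1, WT 2, ZBP1-KO 1 and ZBP1-KO 2.

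Of this list, the 8 genes with the largest fold changes among those whose genotypes did not overlap were all lower in ZBP1-KO. Arc, a cytoskeletal regulator best known from neurons, was at 3.94, 4.28, 1.03 and 0.539 CPM in WT 1, WT 2, ZBP1-KO 1 and ZBP1-KO 2 (log2 fold change -2.35). Plk3, a stress-responsive polo-like kinase, was at 35.3, 26.4, 3.24 and 15.3 CPM (-1.77). For these genes and for Ier3, a survival factor of the NF-kappaB response at 34.8, 23.9, 11.9 and 14.5 CPM (-1.16), the WT libraries lay within 1.5-fold of each other. Zfp36, which encodes tristetraprolin, a protein that destabilises AU-rich messenger RNAs, was at 58.1, 20.95, 12.5 and 18.9 CPM (-1.34), so that WT 2 was close to the ZBP1-KO libraries as for Junb. Csrnp1, a nuclear protein induced by several signals, was at 14.0, 5.99, 3.61 and 4.31 CPM (-1.34) and Btg2, an antiproliferative p53 target, at 42.4, 19.4, 14.4 and 17.7 CPM (-0.95), with the same order of libraries. Dusp5, a nuclear ERK phosphatase, was at 2.41, 6.41, 2.36 and 0.754 CPM (-1.47) and Maff, a small Maf protein, at 5.31, 5.82, 3.54 and 1.62 CPM (-1.09), and for these WT 2 was the higher WT library. The adjusted p of each of the 8 was 0.999.

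The genes upstream and downstream were described by lists in the same way. Together with the AP-1 relatives and the heat shock, clock and tubular injury lists, they held 151 tested genes, each counted once. Genes of the other immediate-early list were left out of this count. Of the 151, 0 were called by edgeR's quasi-likelihood test, the edgeR exact test or DESeq2. In the quasi-likelihood test 9 of the 151 had an unadjusted p under 0.05, all in the lower direction. Among the 9 were Hspa1b of the heat shock list and Cry2 and Clock of the clock list. Over all genes tested, 1.97% had such a p in the lower direction and 1.91% in the higher. The medians and shares below use each list in full. Of 18 tested ligands and receptors that activate the response, 3 had ZBP1-KO below WT without overlap (16.7%, against 16.3% of all genes tested) and 1 above (against 16%), and the median log2 fold change was -0.04. Edn1, which encodes endothelin-1, was at 3.86, 1.20, 4.203 and 7.43 CPM (1.19) and Pdgfa at 24.3, 23.7, 17.3 and 13.6 CPM (-0.63). The 28 MAP kinase and related kinase genes had a median of 0.00, with Rps6ka2, a ribosomal S6 kinase downstream of ERK, at 5.39, 5.90, 1.40 and 1.62 CPM (-1.90). The median of the 17 factors that bind the promoters of immediate-early genes was 0.09. Among them Srf was at 14.4, 17.4, 8.11 and 7.22 CPM (-1.05), Atf1 at 12.9, 16.9, 6.05 and 9.26 CPM (-0.97) and Crtc3, a CREB coactivator, at 15.04, 15.6, 11.7 and 7.43 CPM (-0.67), each with WT 2 above WT 1. The 18 tested feedback genes had a median of -0.14, and Dusp8, another MAP kinase phosphatase, was higher in ZBP1-KO at 1.93, 1.11, 4.06 and 4.85 CPM (1.54), although neither it nor any other passed the test (adjusted p = 0.999).

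Among 19 genes known as targets of AP-1 or Egr1, 3 had ZBP1-KO below WT without overlap, a share of 15.8% against 16.3% of all genes, and the median was -0.12. Timp1, a metalloproteinase inhibitor, was at 7.64, 2.91, 2.21 and 1.94 CPM (-1.34). Il11 was at 1.21, 2.65, 0.369 and 0 CPM (-3.20) on at most 31 counts. The 16 SRF cytoskeletal targets had a median of -0.05, the 14 heat shock genes 0.02 and the 14 clock genes tested -0.15. Hspa1b, the inducible Hsp70, was at 51.3, 94.6, 51.2 and 19.6 CPM (-1.03), with WT 1 and ZBP1-KO 1 at nearly the same level. Cry2, a repressor of the clock, was at 8.69, 5.99, 0.737 and 2.91 CPM (-2.04). The 5 tested genes of tubular injury had a median of 0.18. Both ZBP1-KO libraries lay below both WT libraries for 17.9% of the kinases, 35.3% of the promoter-binding factors and 33.3% of the feedback genes. In these lists 3, 3 and 1 genes lay above. The share below was 25% for SRF cytoskeletal targets, 28.6% for clock genes, 7.14% for heat shock genes and 0% for tubular injury genes. In these, 0, 0, 2 and 0 genes lay above, and 1 of the AP-1 and Egr1 targets did. Over all genes tested, 16.3% lay below and 16% above. Nothing particular to a list is read from these shares and medians.

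**Figure D5:**
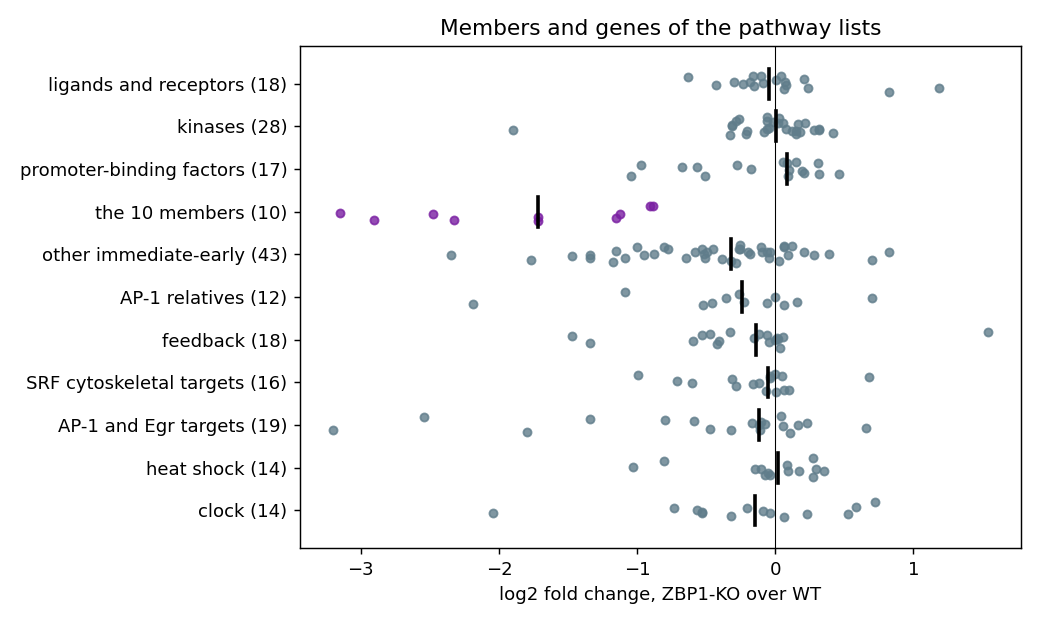
Fitted log2 fold change (x axis, ZBP1-KO over WT) of the tested genes of each list plotted (rows, tubular injury not among them, number of genes tested in brackets), with 1 point per gene and a black bar at the median. The 10 members, which were chosen on this contrast, lie between -3.15 and -0.89, the other immediate-early genes have a median of -0.32 and the medians of the other lists plotted lie between -0.24 and 0.09.

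The genes whose pattern over the 4 libraries was most like the mean of the members were found by the root mean square distance of centred log2 CPM among 10467 genes with a mean of at least 5 CPM, the members left out. The 8 nearest included the long noncoding RNA Gm42047 (distance 0.297), Csrnp1 (0.321), Slc26a10 (0.360), Gdf15 (0.361), Zfp36 (0.390), Sinhcaf (0.392) and the noncoding RNA 4930461G14Rik (0.435). The distances of the members themselves ran from 0.380 for Ier2 to 1.33 for Fos, and the median over the candidates was 1.02. Of the 8, 2 (Csrnp1 and Zfp36) were on the list of 48, which supplied 36 of the candidates (0.344%). Gdf15, a stress-induced cytokine of the TGF-beta family, was at 19.8, 11.5, 3.02 and 4.96 CPM, and Gm42047 at 122, 53.7, 40.0 and 31.3 CPM. With 4 points per profile, such likeness is a description of these libraries.

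The promoters of members are shown because the genes were at lower levels together. RefSeq windows of 300 bases, from 250 before to 50 after the annotated start, were searched for 8 of the 10 members. Egr1 and Ier2 were not covered. The sequences of 5 of them, on build GRCm38.p6 and written 5′ to 3′ on the strand of the gene, are the gene with the widest range (Fos), the nuclear receptor gene with the most matches (Nr4a1), the members whose genotypes were farthest apart relative to their replicates (Dusp1 and Ccn1) and the one without the shorter motif (Jun). Capitals mark TGACG, the half-site of the cAMP response element, on either strand (read as CGTCA on the strand shown), and TGACNTCA, the full-length form that also covers the AP-1 site of Jun.
Fos, chr12:85473640-85473939, plus strand: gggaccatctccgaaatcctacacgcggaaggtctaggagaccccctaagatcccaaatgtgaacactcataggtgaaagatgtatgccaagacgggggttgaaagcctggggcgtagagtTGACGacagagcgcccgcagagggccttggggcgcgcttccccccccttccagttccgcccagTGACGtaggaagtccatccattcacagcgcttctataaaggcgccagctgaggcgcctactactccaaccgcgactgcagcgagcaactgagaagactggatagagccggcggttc
Nr4a1, chr15:101266596-101266895, plus strand: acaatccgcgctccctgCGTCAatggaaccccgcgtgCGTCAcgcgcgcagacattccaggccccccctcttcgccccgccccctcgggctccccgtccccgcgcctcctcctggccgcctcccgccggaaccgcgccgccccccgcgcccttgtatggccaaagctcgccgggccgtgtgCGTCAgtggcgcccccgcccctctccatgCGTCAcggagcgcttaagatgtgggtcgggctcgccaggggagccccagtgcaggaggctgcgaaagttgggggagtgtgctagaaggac
Dusp1, chr17:26508423-26508722, minus strand: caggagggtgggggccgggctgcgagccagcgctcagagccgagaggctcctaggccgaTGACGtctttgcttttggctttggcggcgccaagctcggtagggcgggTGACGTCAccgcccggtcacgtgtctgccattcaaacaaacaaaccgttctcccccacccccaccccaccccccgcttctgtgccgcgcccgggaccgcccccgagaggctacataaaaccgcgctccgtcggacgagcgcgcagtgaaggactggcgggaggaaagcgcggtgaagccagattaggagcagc
Ccn1, chr3:145649936-145650235, minus strand: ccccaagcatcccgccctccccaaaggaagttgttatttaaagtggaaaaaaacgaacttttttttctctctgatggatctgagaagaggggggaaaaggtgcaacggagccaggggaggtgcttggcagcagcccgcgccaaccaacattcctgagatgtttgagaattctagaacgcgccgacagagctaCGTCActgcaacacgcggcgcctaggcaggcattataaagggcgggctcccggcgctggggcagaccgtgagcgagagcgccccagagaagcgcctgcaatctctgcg
Jun, chr4:95052173-95052472, minus strand: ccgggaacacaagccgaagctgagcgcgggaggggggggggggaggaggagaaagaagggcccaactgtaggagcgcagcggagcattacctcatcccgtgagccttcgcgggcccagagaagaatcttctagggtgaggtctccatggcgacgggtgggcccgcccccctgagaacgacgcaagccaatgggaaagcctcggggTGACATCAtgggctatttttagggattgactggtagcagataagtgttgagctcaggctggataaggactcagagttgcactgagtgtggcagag

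TGACG, searched on both strands, was present in the windows of 7 of the 8 members (Fos, Fosb, Junb, Nr4a1, Dusp1, Ccn1 and Atf3), against 20.8% of all 32851 windows and 29.0% of the 14107 windows of genes tested here. Fos held it at 129 and 66 bases before the start, Fosb at 60, Junb at 106 and Ccn1 at 58. Nr4a1 held 4 matches, at 233, 213, 69 and 40 bases before the start, and Dusp1 held 1 at 191 bases as well as the palindrome TGACGTCA at 143 bases, which contains the shorter motif on both strands. TGACGTCA was in the window of no other member and in 1.79% of all windows. TGACNTCA, which includes TGACGTCA, was in Dusp1 and in Jun, at 45 bases before the start, and in 8.83% of all windows. The AP-1 motif TGANTCA (7.81% of all windows) and the CArG box bound by SRF (1.63%) had no match in the 8 windows, CCAAT (37.4%) matched in Atf3, Jun and Junb, and TATAAA (13.6%) in Fos, Ccn1 and Junb. Members with TGACG ranged from Fos at a log2 fold change of -3.15 to Atf3 at -0.89, and Jun without it was at -0.91. A match is a run of letters and not a measured binding site, and no match says only that these letters are not in this window.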

How the data were processed

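Poly(A)-enriched RNA of 4 kidney samples was made into TruSeq libraries and sequenced by the authors, who trimmed reads with Trimmomatic, aligned them with HISAT2 to mm10 and counted uniquely mapped pairs with featureCounts; versions, annotation release and the strand setting of the counting are not given in the sources used here. The deposited values are raw counts per Ensembl gene, 1 file per library. The members and lists were chosen with earlier results of these data known.

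Gene IDs were matched to GENCODE M21 (54495 of 54532; 37 not). Genes were kept by filterByExpr (minimum count 10, total 15), scaled by TMM and tested with edgeR 4.0.16 in R 4.3.3 (quasi-likelihood, no covariates, Benjamini-Hochberg over 14908 genes, threshold 0.05). The fit was tested on simulated data. CPM is the count over the scaled library size; profiles used log2 CPM with a prior count of 2. The common biological coefficient of variation was 0.304. Total counts were 12601317 and 12921925 in WT and 11452332 and 9878776 in ZBP1-KO. From each list, the text names tested genes whose genotypes did not overlap and whose mean reached 1 CPM, by the size of their fold change (up to 8 of the other immediate-early genes, up to 3 elsewhere), besides Zbp1, the members, Jund, Fosl1, Fosl2, called genes, the 8 nearest profiles and the highest marker of a cell type list. Egr4, Irf1, S100a8, Retnlg, Ly6g, Mpo, Ms4a1 and Cd79a were named after their values were seen. So were the fibroblast and macrophage markers other than Col3a1 and Csf1r. Groups and replicate numbers came from the sample titles. Alternatives were other scalings and filters, the edgeR exact test, DESeq2 1.42.0, mitochondrial genes left out, a replicate block and each library left out. A gene that these rules would name is not reported here.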

Additional observations from a re-analysis of the deposited data

How the results depend on the processing

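The median log2 fold change of the 10 members lay between -1.73 and -1.72 under every alternative that kept all 4 libraries (-1.72 with the replicate block), and between -1.96 and -0.85 with 1 library left out, the value of -0.85 being that without WT 1. That of the other 43 immediate-early genes lay between -0.41 and -0.23 with 1 library left out. Over 120 alternatives the fold changes of the 10 members were negative in 120. The alternatives use the same libraries in which these genes were chosen as lower, so this sign was all but fixed. It is a description. All 10 kept both ZBP1-KO libraries below both WT libraries under the other scalings, with Atf3 at a margin of 1.05-fold in each.

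Counts of calls depended on the processing. Of all genes, 2 were called, against 41 when all genes with at least 1 count were tested, 14 with the edgeR exact test, 9 with DESeq2, 4 without mitochondrial genes and 11 with the replicate block, and 0 to 37 with 1 library left out (0 without WT 1, 20 without WT 2, 8 without ZBP1-KO 1, 37 without ZBP1-KO 2). Of the members, 0 were called, against 7 with all genes with at least 1 count, 1 with a mean of at least 1 CPM and 4 with the exact test. DESeq2 called 2 of them, the fit without mitochondrial genes 1 and the replicate block 4. In the same order of settings, 27, 1, 8, 4, 1 and 7 of all genes were called lower. Since the members were chosen on this contrast, these counts describe the processing and are not a result about them. Of the other immediate-early genes 0 were called, against 3 with all genes with at least 1 count, and 0 to 1 with 1 library left out. The cause was not tested. Across all genes tested, the deviations of same-numbered libraries from their genotype means were not correlated (r = 0.00399). Whether these libraries share more than a number, such as a batch, was not tested. Of 501 alternatives for the other named genes, 3 changed sign: Fosl1 at -0.26 without WT 2 (range -0.26 to 1.73 with 1 library left out), and Fosl2 at -0.099 without WT 2 and -0.24 without ZBP1-KO 1 (range -0.24 to 0.29). Cfd lost its call without WT 1 (1.98).

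With 2 libraries per genotype and 49.5% to 61.5% of the counts on mitochondrial genes, Fosb, Fos and Atf3 rested on under 30 counts in at least 1 library.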
